A study of Mus musculus with 12 samples.

Results

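The proteasome genes described here are the 50 genes, of 55450 in the deposited table, whose symbol starts with Psm, a letter from a to g and a digit, with pseudogenes marked -ps left out. Of these, 5 are the interferon-inducible immunoproteasome genes Psmb8, Psmb9, Psmb10, Psme1 and Psme2, and 45 are the others. Stranded total RNA libraries depleted of ribosomal RNA were made from donor cells that lacked lineage markers and carried the receptor Kit, taken from the marrow of mice after competitive transplantation. There were 12 libraries, 3 for each of 4 genotype labels: WT, Tet2 KO (Tet2KO), Id1 KO (Id1KO) and Tet2 KO + Id1KO (dKO). The Tet2 protein oxidises methylated cytosine in DNA, and its loss is linked to clonal expansion of blood stem cells, and Id1 encodes an inhibitor of basic helix-loop-helix transcription factors. The labels name no allele, Cre driver, strain, age, recipient number or time after transplantation. Titles give the libraries of a genotype the same sample number, and nothing states that they came from separate mice, so p-values measure the spread between these libraries, which may be technical.

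Levels are given as CPM, counts relative to a library size scaled by TMM, with 15706407 to 19959183 estimated counts per library. A gene was called higher or lower where edgeR's quasi-likelihood test gave a Benjamini-Hochberg adjusted p under 0.05 over the 14346 genes tested. The labels were not borne out by the RNA of the targeted genes. Mean Tet2 levels were 99.3 ± 2.2 CPM (SD, n = 3) for WT, 129.9 ± 2.51 for Tet2KO, 92.0 ± 1.55 for Id1KO and 118 ± 3.08 for dKO, so Tet2 was not lower where the label is Tet2-null. Mean Id1 levels were 1.47 ± 0.268 CPM for WT, 3.86 ± 0.421 for Tet2KO, 3.96 ± 0.342 for Id1KO and 3.93 ± 0.501 for dKO. Which part of either gene was deleted is not given in the sources used here, so gene counts may not check the labels, and every genotype named below is that of the label. The 6 Kit+ progenitor markers summed to 1908 to 1941 CPM in WT and 1941 to 1977 in Tet2KO. In Id1KO the sum was 1836 to 1866 CPM and in dKO 1762 to 1800. In Tet2KO against WT 4 of these markers were called higher and 2 lower. Markers of mature cells ranged from near absent to abundant. Cd3e, Ms4a1 and Ly6g reached at most 1, 2 and 2 counts in any library, whereas the B-cell gene Cd79b reached 465, the neutrophil gene S100a8 1050, the myeloid gene Itgam 630, the cytotoxic-cell gene Nkg7 2786 and the globin gene Hba-a1 259 counts.

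The proteasome degrades proteins tagged with ubiquitin. Its core particle is a stack of alpha rings, which gate entry, and beta rings, which hold the proteolytic sites of Psmb5, Psmb6 and Psmb7. A regulatory particle made of Psmc ATPases and Psmd subunits binds, strips and unfolds the substrate, and the Psme proteins are alternative activators. In cells exposed to interferon, and in much of the blood lineage, Psmb8, Psmb9 and Psmb10 take the places of Psmb5, Psmb6 and Psmb7, and Psme1 with Psme2 forms an activator cap; this form is known for making peptides for MHC class I. Transcription factors of the IRF and STAT families act on the inducible genes, and Nfe2l1 acts on the constitutive ones through the antioxidant response element.

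Promoter sequence was taken from RefSeq on GRCm38.p6, which matched 42 of the 50 genes with 45 windows of 250 bases upstream of a start site. The antioxidant response element, searched as TGACNNNGC on either strand, was found in 5 member windows, 11.1%, against 10.2% of all 32851 windows. An interferon regulatory factor element, searched as GAAA, any 2 bases and GAAA on either strand, was in 3 member windows, 6.67% against 2.98%, and those windows belong to Psmb3, Psmd4 and Psmd9, none of them an inducible gene. A STAT element, TTCNNNGAA, was in 4.44% of member windows against 7.02% of all, and the CCAAT box in 33.3% against 33.8%. Matches of different motifs were allowed to overlap, and a match is a description of the letters only. The sequences below are windows of 5 genes described in the results, 5′ to 3′ on the strand of the gene, with every match found in capitals: the antioxidant response element in Psmb5, Psmb6 and Psmd9, and the motif named beside the gene in the others. In Psmd9 the first run of capitals is an interferon regulatory factor element, and 30 bases are given where an annotated exon lies in the window.
Psmb5 (chr14:54618023-54618052, minus strand), the constitutive counterpart of Psmb8: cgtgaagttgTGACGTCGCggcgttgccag
Psmb6 (chr11:70525107-70525356, plus strand), the constitutive counterpart of Psmb9: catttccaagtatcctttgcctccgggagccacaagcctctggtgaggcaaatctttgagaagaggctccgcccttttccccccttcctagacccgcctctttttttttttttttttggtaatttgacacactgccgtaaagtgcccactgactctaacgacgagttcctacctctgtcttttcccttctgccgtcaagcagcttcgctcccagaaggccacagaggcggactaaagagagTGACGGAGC
Psmd9 (chr5:123227940-123228189, plus strand), among the largest falls in Tet2KO: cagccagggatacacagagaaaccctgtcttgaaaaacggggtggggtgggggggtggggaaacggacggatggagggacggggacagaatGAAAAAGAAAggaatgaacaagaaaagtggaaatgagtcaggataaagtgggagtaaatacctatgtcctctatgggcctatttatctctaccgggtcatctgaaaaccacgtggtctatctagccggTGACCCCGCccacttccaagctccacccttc
Psmb8 (chr17:34198088-34198117, plus strand), STAT element: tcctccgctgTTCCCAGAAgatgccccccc
Psmb9 (chr17:34187331-34187360, minus strand), CCAAT box on the other strand: cctgcaccgcgcgcagccgctgATTGGaaa
The matches started 47 bases before the start site in Psmb5, 9 in Psmb6, 97 in Psmb8 and 8 in Psmb9. In Psmd9 the interferon regulatory factor element started 159 bases and the antioxidant response element 31 bases before it.

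Of the 50 genes, 49 passed the filter on low counts. Psmb11, the catalytic subunit of the thymus proteasome, had 0 counts in every library, and the 3 counts taken as a floor correspond to 0.155 to 0.19 CPM. Psmc3ip matches the symbol rule but encodes a recombination factor and no subunit, and its mean was 19.1 to 21.2 CPM over the genotypes. On the scale of mean CPM per kilobase of principal transcript, over all libraries, the alpha ring ran from Psma7 at 220.0 down to its testis paralog Psma8 at 2.73. The beta ring ran from Psmb6 at 166 to Psmb9 at 58.7, and the ATPases from Psmc3 at 110.0 to Psmc2 at 47.2. Psmd2, a scaffold of the regulatory particle, was the highest of the non-ATPase subunits at 102 and the lid subunit Psmd11 the lowest at 31.3. Among activators Psme1 stood at 155 and Psme2b at 5.52, and among assembly chaperones Psmg4 at 35.5 and Psmd9 at 12.8. With merged exonic length in place of the principal transcript the highest became Psmc1 among ATPases, Psma6 in the alpha ring and Psmb5 in the beta ring. Psme2b shares 99.4% identity over 794 bases with Psme2, and Psma3 shares 100% over 685 bases with the pseudogene Gm13835. Psmd11 shares 97.9% over 1501 bases with the transcript A730017L22Rik, which had 108 to 163 counts per library. It also shares shorter stretches with many other genes. Among them is Rack1, with 95.8% over 143 bases and 29518 to 38015 counts per library. How reads were divided between such copies is uncertain.

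Summed over the 50 genes, the level was 5495, 5648 and 5592 CPM in the WT libraries, 5243, 5186 and 5198 in Tet2KO, 5488, 5468 and 5553 in Id1KO, and 5561, 5539 and 5576 in dKO. The Tet2KO libraries were the lowest and overlapped no other genotype. Of the 49 genes tested, 39 had their lowest genotype mean in Tet2KO, where 31.6% of all genes tested had theirs. Id1KO held the lowest mean of 8 members, 4 of them inducible, and WT and dKO of 1 each.

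**Figure D1:**
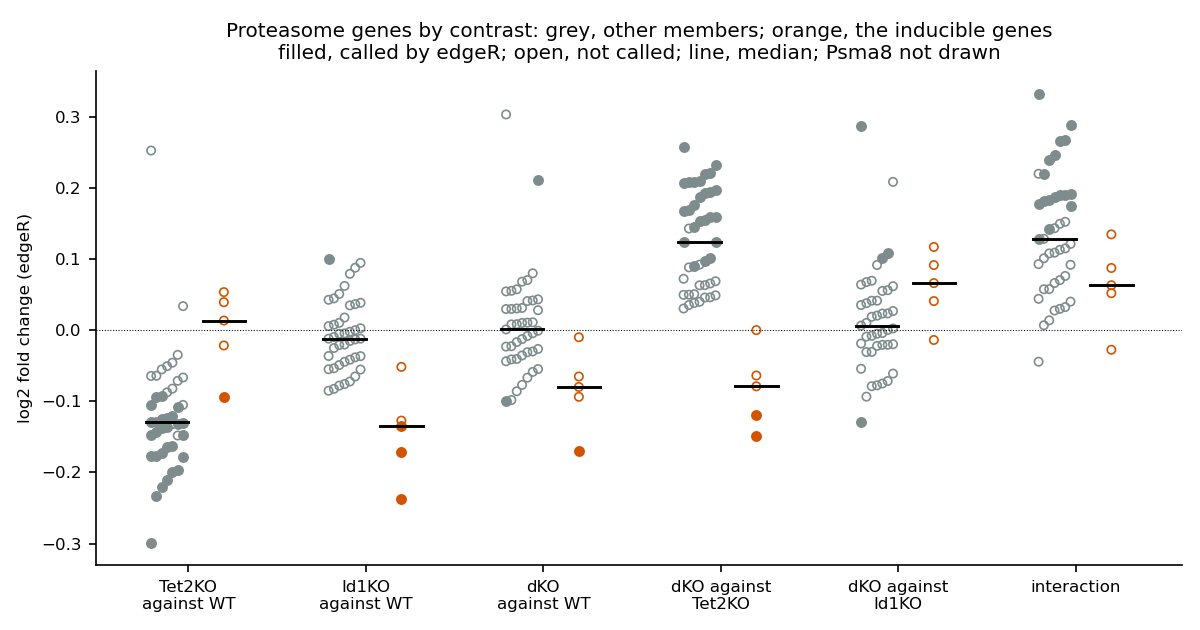
Log2 fold change of each proteasome gene tested except Psma8 (y axis) in the 6 contrasts (x axis); grey points are the members that are not inducible, orange points the 5 inducible genes, filled points were called by edgeR and lines are medians. Grey points lie mostly below 0 for Tet2KO against WT and above 0 for dKO against Tet2KO, where 4 of the 5 orange points lie below 0 and that of Psme2 at 0.00.

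In libraries labelled Tet2KO, most constitutive proteasome genes were lower than in WT, from -6.22% to -18.7% among those called, while the catalytic inducible genes were not called. Of 49 genes tested, 29 were called lower and 1 higher, where 16.2% of all genes tested were called lower and 16.6% higher. The median log2 fold change of the members was -0.12, and that of all genes tested was 0.00. The libraries of Tet2KO lay wholly below those of WT for 36 members, against 23.1% of all genes, and wholly above for 2, against 22.9%. For the 44 members that are not inducible the median was -0.13 and the middle of the distribution ran from -0.16 to -0.08 between quartiles. In these bulk libraries fewer cells of a type and less RNA per cell cannot be told apart.

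The lowest 3 of the called changes were those of assembly chaperones, Psmg2, Psmg1 and Psmd9, although the median of the 7 chaperone genes, -0.13, was not below that of the ATPases, -0.15, or of the non-ATPase subunits, -0.14. Psmg2, which pairs with Psmg1 to build the alpha ring, was at 37.6, 39.9 and 38.9 CPM in WT, 32.4, 33.3 and 29.1 in Tet2KO, 39.0, 36.4 and 38.1 in Id1KO, and 37.8, 38.3 and 35.1 in dKO. The Tet2KO libraries were below all 9 others. Its log2 fold change in Tet2KO against WT was -0.30 (SE 0.055, adjusted p = 0.000295). Psmg1 (chr16:95979933-95990960) stood at 38.3, 39.1 and 37.0 CPM in WT and at 33.4, 31.6 and 32.4 in Tet2KO, with a change of -0.23 (SE 0.055, adjusted p = 0.00287). Psmd9, a chaperone of the ATPase ring, was at 34.4, 34.9 and 34.7 CPM in WT and 30.8, 28.0 and 30.5 in Tet2KO, a change of -0.22 (SE 0.053, adjusted p = 0.00334). Neither gene's Tet2KO libraries overlapped WT. Psmd5, another ATPase chaperone, was also lower at -0.12. Psmg3, Psmg4 and Psmd10, the remaining chaperones, had changes of -0.13 to -0.09 and were not called, so 4 of 7 chaperones fell.

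In the regulatory particle, of 6 ATPase genes 5 were lower, from Psmc1 at -0.21 to Psmc4 at -0.09, and Psmc3 was not called at -0.06. Psmc1 was at 144.6, 155.7 and 145.3 CPM in WT and at 124.8, 129.0 and 131.4 in Tet2KO, without overlap. Of 11 non-ATPase genes 8 were lower. They included the lid subunits Psmd7 at -0.20 and Psmd6 at -0.20, the ubiquitin receptor Psmd4 at -0.18, the lid deubiquitinase Psmd14 at -0.15 and the scaffolds Psmd1 at -0.14 and Psmd2 at -0.10. Psmd8, Psmd11 and Psmd13 were not called, with changes of -0.07, -0.05 and -0.05.

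In the core particle, 4 of the 7 alpha genes Psma1 to Psma7 were lower: Psma6 at -0.16, Psma3 at -0.15, Psma4 at -0.14 and Psma5 at -0.12. Of the 7 constitutive beta genes 5 were lower. Psmb5, which carries the chymotrypsin-like activity, was at 92.6, 93.2 and 94.0 CPM in WT and 87.0, 86.7 and 82.0 in Tet2KO, a change of -0.13 (SE 0.035, adjusted p = 0.00746) that was lost without Tet2KO replicate 3 (adjusted p = 0.0747). Psmb7, which carries the trypsin-like activity, was at 121.9, 130.0 and 131.4 CPM in WT and 113.4, 119.1 and 117.2 in Tet2KO, a change of -0.13 (SE 0.037, adjusted p = 0.00979). Its call was lost without WT replicate 2, WT replicate 3 or Tet2KO replicate 1, with adjusted p up to 0.0658. Psmb6, the caspase-like subunit, was at 130.9, 141.1 and 133.0 CPM in WT and 125.3, 130.7 and 130.8 in Tet2KO, and was not called at -0.07 (adjusted p = 0.191). Psmb1, a non-catalytic beta subunit, had the smallest of the called falls at -0.09 (adjusted p = 0.0153), and was not called in 4 of 12 leave-one-out fits, refits that each omitted a library, with adjusted p up to 0.0956 without WT replicate 2.

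Among activators and the inhibitor, Psme3, the nuclear activator, fell by 0.18 on the log2 scale and Psmf1, an inhibitor of the core particle, by 0.17. Psme4, another nuclear activator, was not called at 0.03, nor was Psme2b at 0.25.

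**Figure D2:**
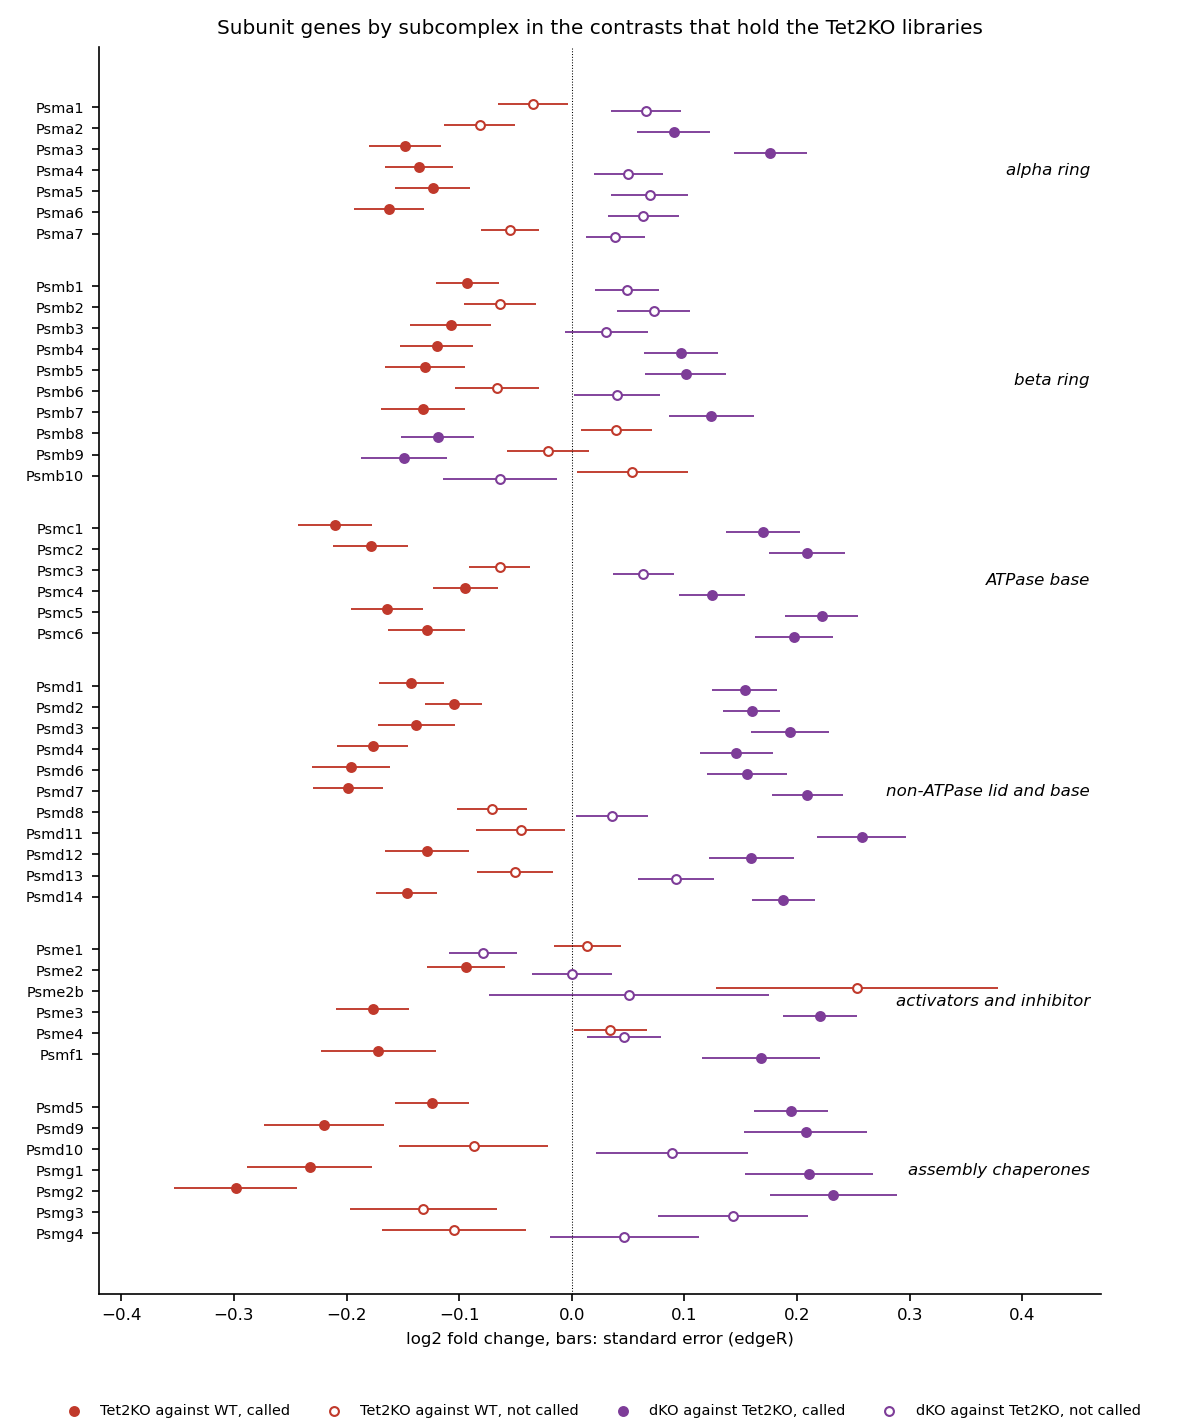
Log2 fold change with its standard error (x axis) of each subunit gene tested except Psma8, grouped by subcomplex (y axis), in the contrasts that share the Tet2KO libraries; filled points were called by edgeR. Red points for Tet2KO against WT lie left of 0 for all 6 ATPase, all 11 non-ATPase and all 7 chaperone genes, and purple points for dKO against Tet2KO lie right of 0 for the same genes.

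Of the 5 inducible genes, 1 was called in Tet2KO against WT, and their median change was 0.01. Psmb8 (chr17:34197721-34201454) was at 234.9, 241.2 and 249.1 CPM in WT and 252.3, 245.0 and 248.1 in Tet2KO, a change of 0.04 (SE 0.032, adjusted p = 0.374). Psmb9 (chr17:34181987-34187764) was at 82.8, 86.7 and 86.4 CPM in WT and 87.1, 82.0 and 83.2 in Tet2KO, a change of -0.02 (SE 0.037, adjusted p = 0.701). Psmb10 (chr8:105935735-105938444) was at 81.8, 83.2 and 83.5 CPM in WT and 91.5, 84.8 and 81.9 in Tet2KO, a change of 0.05 (SE 0.05, adjusted p = 0.445). The libraries of both labels overlapped for all 3 genes. Psme1 (chr14:55578123-55581529) was at 173.5, 182.2 and 169.2 CPM in WT and 180.0, 173.2 and 176.8 in Tet2KO, and was not called at 0.01. Psme2 (chr14:55587441-55591113) was at 112.2, 121.7 and 116.6 CPM in WT and 110.9, 106.6 and 110.9 in Tet2KO, a change of -0.09 (SE 0.035, adjusted p = 0.0434). The Psme2 call was kept in 4 of 12 leave-one-out fits (adjusted p up to 0.26, without WT replicate 2) and was lost with DESeq2 and when Psme2 was summed with its copies.

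Psma8, which replaces Psma7 in the proteasome of male germ cells, was the member called higher. Its level was 3.84, 3.71 and 3.08 CPM in WT, 8.58, 9.23 and 7.27 in Tet2KO, 3.19, 2.91 and 2.70 in Id1KO, and 3.80, 3.89 and 3.19 in dKO. The Tet2KO libraries stood above all 9 others, at 49 to 155 counts per library over the series. The log2 fold change in Tet2KO against WT was 1.23 (SE 0.128, adjusted p = 3.83e-07), and it was called in all 12 leave-one-out fits. The gene lies on chromosome 18, and its nearest neighbours on either side with tested counts, Taf4b and Ss18, were not called, at 0.00 and 0.07. Kctd1, 206 kb away, was higher in Tet2KO at 0.46 (SE 0.062, adjusted p = 1.06e-05).

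**Figure D3:**
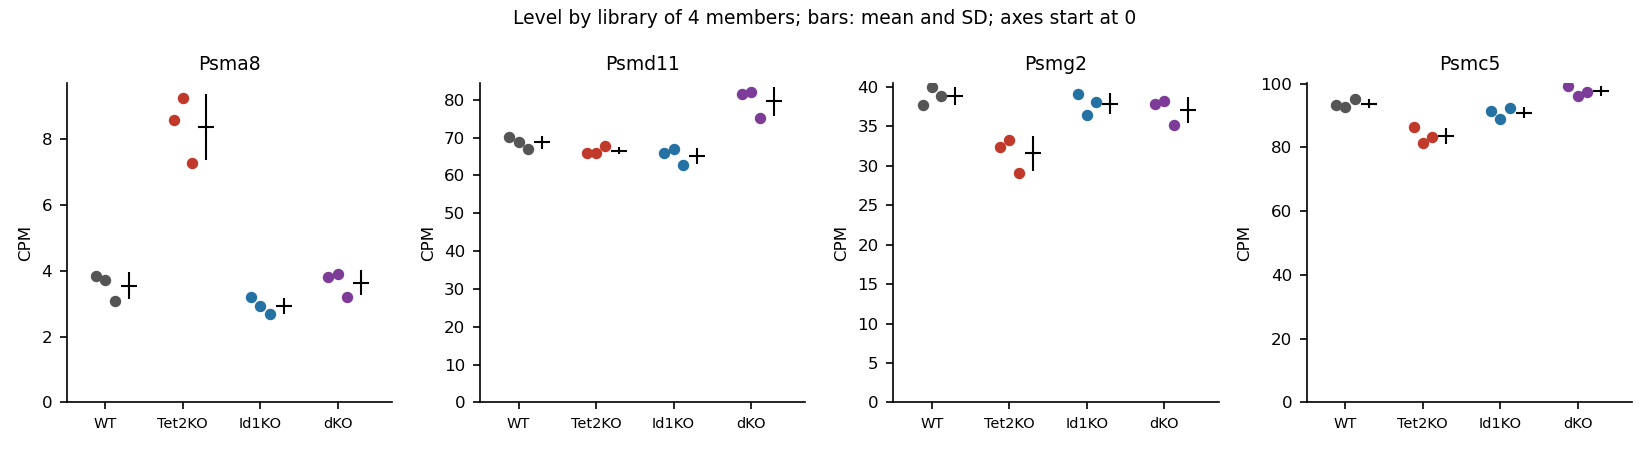
Level in CPM (y axis, from 0) in each of the 12 libraries by genotype label (x axis) for Psma8, Psmd11, Psmg2 and Psmc5, with the mean and SD as bars. Psma8 is highest in the 3 Tet2KO libraries, at 7.27 to 9.23 CPM, Psmd11 in the 3 dKO libraries, and Psmg2 and Psmc5 are lowest in Tet2KO.

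Markers of other cells moved with these counts. Of 11 erythroid markers 10 were lower in Tet2KO than in WT, with a median log2 fold change of -0.78, and their summed CPM ran from 953.9 to 998.4 for WT, 606.0 to 618.1 for Tet2KO, 1115 to 1150.0 for Id1KO and 974.4 to 990.7 for dKO. Neutrophil markers summed to 14100 to 14160 CPM in WT and 15580 to 15820 in Tet2KO, with 5 of 10 tested higher and 2 lower. Most of that sum was Mpo, at 9912 ± 20.3 CPM in WT and 11140 ± 114 in Tet2KO. The markers called lower were Camp at -0.92 and Ngp at -0.49, so the sum does not describe every gene of the list. Monocyte and dendritic markers summed to 863.8 to 886.9 CPM in WT and 973.4 to 979.0 in Tet2KO, with 5 of 10 higher and 1 lower. Lymphoid markers summed to 193.2 to 201.4 CPM in WT and 217.8 to 221.5 in Tet2KO, with 4 of 8 tested higher and 0 lower and a median of 0.33. Most of that sum was Nkg7, at 139.6 ± 2.87 CPM in WT and 149.6 ± 0.892 in Tet2KO. Of 5 mast-cell and basophil markers 3 were higher, and of 5 megakaryocyte markers 2, with 0 lower in either list. None of the listed markers were at 0 in every library, and their part in the result was not tested. In a further edgeR fit the 3 libraries of a genotype were summed to 1 sample and the labels given additive effects. For the Tet2 label 0 of 49 members were called (lowest adjusted p = 0.158), where 232 of 14346 genes were. For the Id1 label 0 members were called (lowest adjusted p = 0.429), where 7 genes were. At an unadjusted p under 0.05 there were 2 and 6 members, where 15.5% and 9.95% of all genes were. That fit has 1 residual degree of freedom, which holds the interaction.

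Genes that act with the proteasome were described from a list of 28, of which 9 were lower and 3 higher in Tet2KO than in WT, with a median of -0.05. Txnl1, a thioredoxin bound to the regulatory particle, went from 143.9 ± 6.24 CPM in WT to 118.1 ± 2.04 in Tet2KO (n = 3), a fall of 0.29 on the log2 scale (SE 0.036, edgeR adjusted p = 4.1e-06). Ubqln2, a shuttle for ubiquitinated proteins, was higher at 0.22 (SE 0.06, adjusted p = 0.00745). Pomp, the maturation factor of the core particle, was lower at -0.16, and Nfe2l1, the transcription factor of the constitutive genes, was not called at 0.05. Of 21 genes of antigen processing and its regulators, 6 were higher and 1 lower, with a median of 0.04. Those higher were Irf1, Irf2, Nlrc5 and the interferon receptor genes Ifngr2, Ifnar1 and Ifnar2. Tap1, Tap2, Tapbp, Erap1, B2m, H2-K1 and H2-D1 were not called, with changes from -0.07 to 0.06. The gene called lower was Ifngr1, which encodes an interferon gamma receptor chain, at -0.25 (SE 0.026, edgeR adjusted p = 3.69e-07). Of 11 tested genes of an interferon response list, 2 were higher and 1 lower, with a median of 0.02. Irf1, an interferon-induced activator of the inducible genes, went from 57.6 ± 1.72 CPM in WT to 72.3 ± 1.68 in Tet2KO, a change of 0.33 (SE 0.037, adjusted p = 1.03e-06). Irf2, a related factor, was called at 0.26 (adjusted p = 0.0222), but not with DESeq2 or in 4 of 12 leave-one-out fits (adjusted p up to 0.116, without WT replicate 2).

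In libraries labelled Id1KO the pattern was another: the called falls were in inducible genes and the rest of the family stayed near WT. Of 49 genes tested 3 were called lower, where 7.77% of all genes were lower, and 1 higher, where 7.26% were. The Id1KO libraries lay wholly below those of WT for 10 members, against 17.1% of all genes, and wholly above for 3, against 15.6%. All 3 called lower were inducible, and the median log2 fold change was -0.13 for the 5 inducible genes, -0.01 for the 44 others and -0.01 for all genes tested. Psmb9 was at 82.8, 86.7 and 86.4 CPM in WT and 73.4, 72.5 and 71.2 in Id1KO, a change of -0.24 (SE 0.037, adjusted p = 0.000181). Psmb8 was at 234.9, 241.2 and 249.1 CPM in WT and 209.8, 216.5 and 217.6 in Id1KO, a change of -0.17 (SE 0.032, adjusted p = 0.000977). For both genes the Id1KO libraries lay below WT without overlap, and the calls held in all 12 leave-one-out fits. Psme2 was at 105.2, 105.2 and 108.8 CPM in Id1KO, below its 112.2 to 121.7 in WT, a change of -0.13 (SE 0.034, adjusted p = 0.0113) that was lost without WT replicate 2 (adjusted p = 0.0807) and without Id1KO replicate 1. Psmb10 was at 76.1, 78.7 and 72.6 CPM in Id1KO, also below every WT library, but was not called at -0.13 (SE 0.05, adjusted p = 0.0942); it was called without a filter on low counts, with the WT and Id1KO libraries alone, and without dKO replicate 2. Psme1 overlapped WT at 170.1, 169.1 and 167.3 CPM and was not called at -0.05 (adjusted p = 0.272). The 1 gene called higher was the alpha subunit Psma3, from 164.8, 171.8 and 173.8 CPM in WT to 179.9, 178.8 and 188.2 in Id1KO, a change of 0.10 (SE 0.031, adjusted p = 0.0349), which 4 of 12 leave-one-out fits, DESeq2 and the unfiltered fit did not call (adjusted p up to 0.139, without Id1KO replicate 3). Without WT replicate 2, or without Id1KO replicate 1, 2 members were called in all.

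The counterparts of the inducible subunits were not called in Id1KO against WT, with changes of -0.05 for Psmb5, 0.00 for Psmb6 and 0.01 for Psmb7. Psmb8 and Psmb9 lie 9.96 kb apart on chromosome 17 beside the peptide transporter genes Tap1 and Tap2, and Psmb9 overlaps Tap1 on the opposite strand. Tap1 went from 185 ± 7.03 CPM in WT to 153.8 ± 6.29 in Id1KO (n = 3), a change of -0.27 (SE 0.038, adjusted p = 7.3e-05), and Tap2 changed by -0.26 (SE 0.034, adjusted p = 3.14e-05). Over the list of antigen processing genes and regulators, 8 of 21 were lower and 1 higher, with a median of -0.07. They included Irf8, a transcription factor of the monocyte and dendritic lineages, from 340.6 ± 4.88 CPM in WT to 265.9 ± 5.74 in Id1KO, a change of -0.36 (SE 0.028, adjusted p = 2.27e-08). Of the 11 interferon response genes tested, 0 were called in either direction by edgeR or by DESeq2, with 1 higher and 2 lower at an unadjusted p under 0.05 in edgeR, and their median was -0.09. Among the 28 proteasome partners 5 were lower and 5 higher, among them Akirin2, an import factor for nuclear proteasomes, which was higher at 0.25 (SE 0.051, adjusted p = 0.00194). Monocyte and dendritic markers, which include Irf8, summed to 772.8 to 779.3 CPM in Id1KO against 863.8 to 886.9 in WT. Of 10 tested, 5 were lower and 1 higher. Neutrophil markers summed to between 11850 and 12830 CPM in Id1KO against 14100 to 14160 in WT, with 2 of 10 lower. Most of that sum was Mpo, at 8428 ± 382 CPM in Id1KO against 9912 ± 20.3 in WT. Megakaryocyte markers summed to 219.8 to 233.4 CPM in Id1KO against 154.8 to 161.6 in WT, with 3 of 5 higher and a median of 0.40. Of 11 erythroid markers 2 were higher, and of 8 lymphoid markers 1 was lower. Their part in the result was not tested. Psmf1 is the member nearest to Id1, 992 kb away on chromosome 2, and was not called in Id1KO against WT.

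**Figure D4:**
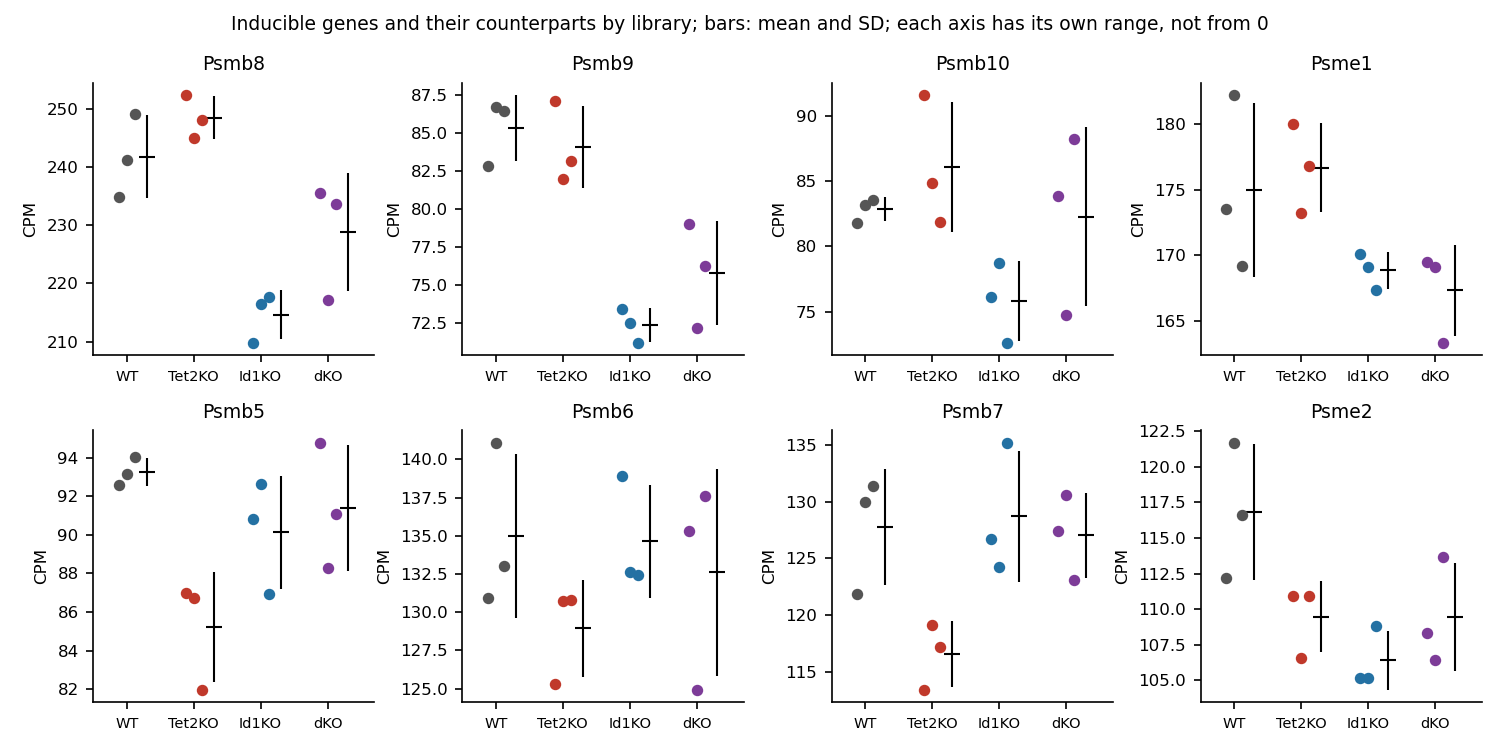
Level in CPM (y axis, each panel with its own range and not from 0) in each of the 12 libraries by genotype label (x axis) for the 5 inducible genes and the constitutive counterparts Psmb5, Psmb6 and Psmb7, with mean and SD as bars. Psmb8 and Psmb9 are lower in the 3 Id1KO libraries than in any WT or Tet2KO library, and Psmb5 and Psmb7 are lowest in Tet2KO by their means.

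With both labels, in dKO against WT, the family was close to WT. Of 49 members 1 was higher and 2 were lower, where 10.2% of all genes were higher and 8.97% lower, and the median log2 fold change was 0.00 over the members and 0.00 over all genes. The dKO libraries lay wholly above WT for 7 members, against 16.7% of all genes, and wholly below for 4, against 16.5%. Psmd11, a lid subunit that contacts the core particle (chr11:80428615-80473248), was at 70.2, 68.9 and 67.0 CPM in WT, 66.1, 65.9 and 67.7 in Tet2KO, 65.9, 66.9 and 62.8 in Id1KO, and 81.6, 82.0 and 75.3 in dKO. The dKO libraries stood above all 9 others, and the change against WT was 0.21 (SE 0.039, adjusted p = 0.000568). Psmb9 was at 79.0, 72.2 and 76.3 CPM in dKO, below every WT library, a change of -0.17 (SE 0.037, adjusted p = 0.00275). Psma6, an alpha subunit, was called at -0.10 (adjusted p = 0.0293) but not in 4 of 12 leave-one-out fits, with DESeq2, or with the WT and dKO libraries alone. Without the filter on low counts 6 members were called. The other inducible genes were not called, at -0.09 for Psme2, -0.08 for Psmb8, -0.06 for Psme1 and -0.01 for Psmb10. Of the antigen processing list 7 of 21 were lower and 3 higher, with Tap2 at -0.30 (SE 0.035, adjusted p = 3.34e-06) and the interferon gamma receptor gene Ifngr1 at -0.32 (SE 0.026, adjusted p = 2.67e-08). Of the partners 5 of 28 were lower and 3 higher, including Ubqln2 at 0.26. Of the 11 interferon response genes 3 were higher and 0 lower, with a median of 0.26; DESeq2 called 2. Erythroid markers were higher for 5 of 11 and lower for 1, and lymphoid markers lower for 2 of 8; their part in the result was not tested.

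Against Tet2KO, the dKO libraries had higher levels of most subunits outside the inducible group. Of 49 members 25 were called higher and 3 lower, where 13.1% of all genes were higher and 13.4% lower. The dKO libraries lay wholly above those of Tet2KO for 31 members, against 19.7% of all genes, and wholly below for 4, against 20.2%. The median was 0.10 for all members, 0.12 for the 44 others, -0.08 for the 5 inducible genes and 0.00 for all genes tested. By subcomplex, 5 of 6 ATPases, 9 of 11 non-ATPase subunits, 4 of 7 chaperones, 3 of 7 constitutive beta genes and 2 of the 7 genes Psma1 to Psma7 were higher. This contrast shares the Tet2KO libraries with Tet2KO against WT, so the values of both stand here side by side and are not independent of each other. Psmd11 had the highest change, 0.26 (SE 0.04, adjusted p = 6.9e-05), beside its -0.05 in Tet2KO against WT. Psmg2 was at 0.23 (SE 0.056, adjusted p = 0.00438) beside -0.30. Psmc5, an ATPase, was at 86.4, 81.4 and 83.3 CPM in Tet2KO and 99.3, 96.2 and 97.4 in dKO, a change of 0.22 (SE 0.032, adjusted p = 3.82e-05) beside -0.16. Psme3 was at 0.22 beside -0.18, and Psmf1 at 0.17 beside -0.17.

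The 3 members lower in dKO than in Tet2KO were Psma8 at -1.20 (SE 0.131, adjusted p = 1.29e-06), Psmb9 at -0.15 (SE 0.038, adjusted p = 0.00616) and Psmb8 at -0.12 (SE 0.032, adjusted p = 0.00941). Psmb8 was at 235.5, 217.1 and 233.7 CPM in dKO, below all 3 Tet2KO libraries. Psme1, Psmb10 and Psme2 were not called, at -0.08, -0.06 and 0.00. Psmb5 was called higher at 0.10 (adjusted p = 0.0448), but in 9 of 12 leave-one-out fits it was not called, nor under upper-quartile scaling, DESeq2, no filter, the compared libraries alone or a replicate block. Psmb7 at 0.12 (adjusted p = 0.0201) was not called in 4 of those 12 fits. Among partners 11 of 28 were higher and 2 lower, with Txnl1 at 0.26 (SE 0.037, adjusted p = 3.11e-05). Of the antigen processing list 12 of 21 were lower and 0 higher, with Irf1 at -0.24 (SE 0.037, adjusted p = 9.28e-05) and Tap2 at -0.23 (SE 0.036, adjusted p = 6.76e-05). Of the 11 genes of the interferon response list 4 were higher and 0 lower by edgeR, with a median of 0.26; DESeq2 called 1. Markers of other cells moved with these counts. Of 11 erythroid markers 10 were higher and 0 lower in dKO than in Tet2KO, with a median of 0.77. Of 8 lymphoid markers 5 were lower and 0 higher, with a median of -0.58. Their sum was 156 to 168.7 CPM in dKO against 217.8 to 221.5 in Tet2KO. Most of that sum was Nkg7, at 117.3 ± 4.69 CPM in dKO against 149.6 ± 0.892 in Tet2KO. Neutrophil markers were lower for 5 of 10 and higher for 3, monocyte and dendritic markers lower for 4 of 10 and higher for 1, mast-cell and basophil markers lower for 3 of 5, and megakaryocyte markers higher for 1 of 5 and lower for 1. Their part in the result was not tested.

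Against Id1KO, few members differed in dKO. Of 49, 3 were higher and 1 lower, where 10.6% of all genes were higher and 8.7% lower, and the median was 0.02 against 0.00 over all genes. Without overlap of libraries, 6 members were above, against 17.1% of all genes, and 5 below, against 16.1%. Psmd11 was higher at 0.29 (SE 0.039, adjusted p = 2.22e-05) in all 12 leave-one-out fits. The lid subunit Psmd3 at 0.11 (adjusted p = 0.0279) and Psmc5 at 0.10 (adjusted p = 0.028) were each not called in 4 of those fits nor with DESeq2. Psma4, an alpha subunit, was at 143.6, 138.0 and 147.2 CPM in Id1KO and 128.0, 130.9 and 133.1 in dKO, without overlap, a change of -0.13 (SE 0.03, adjusted p = 0.00448). No inducible gene was called, with Psmb8 at 0.09 (adjusted p = 0.0529), Psmb9 at 0.07, Psmb10 at 0.12, Psme2 at 0.04 and Psme1 at -0.01. The number of members called was 7 without WT replicate 1, 8 without dKO replicate 2 and 2 without dKO replicate 3. In the lists, 2 of 28 partners were higher and 2 lower, with Ubqln2 at 0.49 (SE 0.062, adjusted p = 9.51e-06). Of the antigen processing genes 5 of 21 were higher and 2 lower, with Irf2 at 0.55 (SE 0.086, adjusted p = 0.000106) and Irf8 at 0.41 (SE 0.028, adjusted p = 2.17e-09). Of the 11 interferon response genes 5 were higher and 0 lower, with a median of 0.35; DESeq2 called 4. Megakaryocyte markers were lower for 4 of 5, monocyte and dendritic markers higher for 4 of 10 and lower for 1, and erythroid markers higher for 4 of 11 and lower for 3; their part in the result was not tested.

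Whether the Id1 label went with a different change in the presence of the Tet2 label was tested by the interaction, the change from Tet2KO to dKO minus that from WT to Id1KO. It was above 0 and called for 17 of 49 members and below 0 for 1, where 7.46% and 7.03% of all genes were, and the median was 0.12 over the members and 0.01 over all genes. The called genes included 8 of 11 non-ATPase subunits and 4 of 6 ATPases, 0 of the 7 genes Psma1 to Psma7 and 0 of the 5 inducible genes. Psmd11 was the highest at 0.33 (SE 0.056, adjusted p = 0.000419), followed by Psmg1 at 0.29 (SE 0.078, adjusted p = 0.0171) and Psmg2 at 0.27 (SE 0.077, adjusted p = 0.024). Psma8 was lowest at -0.93 (SE 0.201, adjusted p = 0.00383). The interactions of the inducible genes ranged from -0.03 for Psme1 to 0.14 for Psme2 (adjusted p = 0.0748), and those of Psmb5, Psmb6 and Psmb7 were 0.15, 0.04 and 0.11, none of them called. Of the partners 5 of 28 were above 0 and 2 below, with Txnl1 at 0.29 (SE 0.051, adjusted p = 0.000671) and Ubqln2 at 0.27 (adjusted p = 0.0432). The Ubqln2 interaction was called in 3 of 12 leave-one-out fits (adjusted p up to 0.116, without WT replicate 1) and was lost with DESeq2 and with a replicate block. Of the antigen processing list 3 of 21 were above and 2 below, with Irf8 at 0.37 (SE 0.039, adjusted p = 1.8e-06) and Irf1 at -0.26 (SE 0.053, adjusted p = 0.00235). Of the 11 interferon response genes 0 were called by edgeR or by DESeq2, with 4 above 0 at an unadjusted p under 0.05 in edgeR and a median of 0.32. Erythroid markers had 9 of 11 interactions above 0 and called, with a median of 0.73, megakaryocyte markers 3 of 5 below 0 and lymphoid markers 2 of 8 below 0, and their part in the result was not tested.

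The share of the inducible subunit in each catalytic pair was taken within each library from CPM per kilobase of principal transcript, as a description without a test. Psmb8 made up 58.4%, 58.8% and 59.4% of Psmb8 plus Psmb5 in WT, 61.5%, 60.9% and 62.6% in Tet2KO, 56.1%, 56.3% and 58.0% in Id1KO, and 57.9%, 57.6% and 58.6% in dKO. The Tet2KO libraries were the highest 3 of the 12. Psmb9 made up 27.2%, 26.6% and 27.7% of Psmb9 plus Psmb6 in WT, 29.1%, 27.0% and 27.3% in Tet2KO, 23.8%, 24.4% and 24.1% in Id1KO, and 25.6%, 25.4% and 24.6% in dKO. Here the 6 libraries with an Id1-null label lay below the 6 others. Psmb10 averaged 36.5% ± 0.679 of Psmb10 plus Psmb7 for WT, 39.5% ± 1.89 for Tet2KO, 34.3% ± 1.9 for Id1KO and 36.4% ± 2.61 for dKO (SD, n = 3). The level of a share depends on the length used: by merged exonic length the WT means were 40.8% for Psmb8, 24.4% for Psmb9 and 56.6% for Psmb10, so Psmb8 was then below its counterpart and Psmb10 above it. The order of the libraries within a pair is the same by either length. Of the summed CPM of all 50 genes, the 5 inducible genes held 12.6% ± 0.0971 for WT, 13.5% ± 0.219 for Tet2KO, 11.6% ± 0.133 for Id1KO and 11.9% ± 0.339 for dKO. A share rises when its inducible gene rises or its counterpart falls: in Tet2KO Psmb8 was at 248.5 ± 3.65 CPM against 241.7 ± 7.07 in WT, and Psmb5 at 85.2 ± 2.83 against 93.3 ± 0.725.

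**Figure D5:**
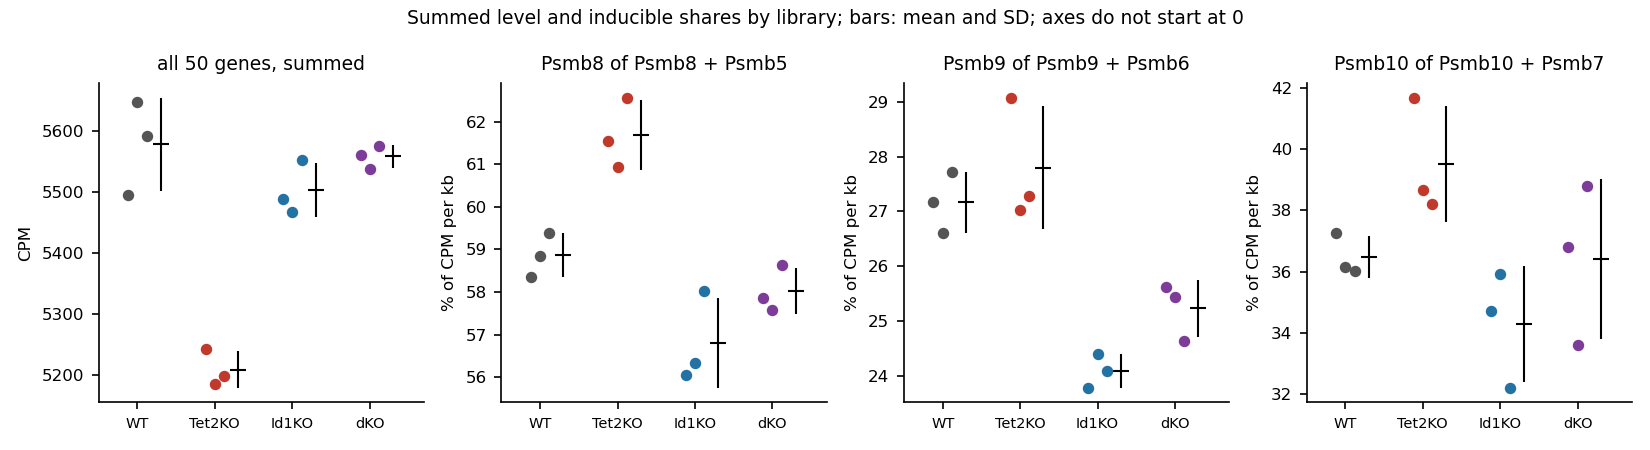
Summed CPM of the 50 genes and the percent of CPM per kilobase of principal transcript held by Psmb8, Psmb9 and Psmb10 in their catalytic pairs (y axes, not from 0) in each of the 12 libraries by genotype label (x axis), with mean and SD as bars. The Tet2KO libraries are lowest in the summed level, at 5186 to 5243 CPM, and highest in the Psmb8 share, at 60.9% to 62.6%.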

How the data were processed

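Per the labels' protocols, RNA was isolated with RNeasy Micro columns and turned into stranded total RNA libraries after ribosomal RNA depletion. The deposited values are estimated counts, of which 5.06% are not whole; STAR, RSEM and mm10 are named in the submitters' processing notes, and versions, annotation and strand setting are not given in the sources used here. All 55450 gene identifiers matched GENCODE M21 (GRCm38), from which positions and lengths were taken.

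Estimated counts were rounded, filtered by edgeR's filterByExpr at a minimum count of 10, scaled by TMM and fitted over all 12 libraries with 1 mean per genotype (edgeR 4.0.16, R 4.3.3). The 6 contrasts were tested two-sided by quasi-likelihood F-tests with Benjamini-Hochberg adjustment over 14346 genes. With 3 against 3 libraries an exact permutation test cannot go below p = 0.1, so none was used. CPM used TMM-scaled library sizes. All 12 pairs of libraries within a genotype differed by more than sampling noise (chi-square per gene from 1.52 to 5.35, over genes with 20 counts), so none were merged; pairs between genotypes gave 9.17 to 24.0. Totals of 15706407 to 19959183 counts per library give the member genes 49 to 5917 counts, Psmb11 left out.

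The members and gene lists were chosen with earlier results of these data known. Named genes were the 5 inducible genes, Psmb5, Psmb6, Psmb7, the 3 highest and 3 lowest members called per contrast, the highest and lowest per subcomplex by CPM per kilobase, and the list gene called highest and lowest per contrast, of which some are not reported here; other members are named to account for the family, and Kctd1, Taf4b and Ss18 were chosen after their values were seen. Near-identical copies were sought with blast 2.17.0 at 95% identity. Only matches of at least 300 bases entered the sum with copies, so shorter ones, as in Psmd11, were not covered by it. Alternatives were upper-quartile or RLE scaling, TMM factors from genes that are neither mitochondrial nor small RNAs, DESeq2 1.42.0, no filter, 10 counts in every library of a genotype, the compared libraries alone, a replicate block, leaving out each library, libraries summed per genotype, a threshold of 0.01, and members summed with pseudogene rows or near-identical copies. Those TMM factors, the sum with copies and pair shares by merged exonic length were added after the data were seen. The steps were tested on simulated data. Figures used Python 3.11.15 and matplotlib 3.10.9.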

Additional observations from a re-analysis of the deposited data

Results flagged for a closer look

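For 18 members the change that went with the Id1 label differed between libraries with and without the Tet2 label, by edgeR's test of the interaction. Their interactions on the log2 scale were -0.93 for Psma8, 0.18 for Psmb4, 0.19 for Psmc1, 0.22 for Psmc2, 0.13 for Psmc3, 0.27 for Psmc5, 0.18 for Psmd1, 0.17 for Psmd2, 0.25 for Psmd3, 0.19 for Psmd4, 0.19 for Psmd6, 0.19 for Psmd7, 0.33 for Psmd11, 0.14 for Psmd14, 0.18 for Psme3, 0.24 for Psmf1, 0.29 for Psmg1 and 0.27 for Psmg2. Psmc3 was called in 5 of 12 leave-one-out fits (adjusted p up to 0.0979, without Tet2KO replicate 3) and Psmg2 in 6 (up to 0.0954, without Tet2KO replicate 3), and DESeq2 called neither of these nor Psmd14. Of the 18, such refits were summarised gene by gene for Psma8, Psmc3, Psmd11, Psmd14, Psmg1 and Psmg2 only. How far the calls of the others hold is not given here, among them Psmf1 (edgeR adjusted p = 0.0303). Groups of 3 libraries are too small for a test of single outlying libraries.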

How the results depend on the processing

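Alternative runs were compared for the genes named per contrast and for the summary values, not for every member. Among these, no called value changed direction under any alternative run. For genes not called, 31 values of 12 results had the other sign, each at most 0.058 from 0 on the log2 scale (Psmb10 in dKO against WT turned to 0.06 without dKO replicate 2), as had 1 median, that of the 44 other members in dKO against WT, 0.0049 and -0.00081 under upper-quartile scaling. Of the counts of members called, 151 values stayed within 1.5 times, 11 were smaller and 3 larger; of the values for single genes, 1933 kept their side of the threshold, 100 lost the call and 17 gained it. With the libraries of a genotype summed to 1 sample, the fit gave an averaged effect for each label and no single contrast. The median log2 effect over the members was -0.05 for the Tet2 label and 0.05 for the Id1 label. These label effects were set against single contrasts in the tally above, so calls lost in the summed fit do not bear on those contrasts. At a threshold of 0.01, 2 members were called in Id1KO against WT, 2 in dKO against Id1KO and 10 for the interaction. DESeq2 called 2 in dKO against Id1KO, and without a filter 6 were called in dKO against WT. Leaving out 1 library gave 24 to 32 members called in Tet2KO against WT, 2 to 6 in Id1KO against WT (2 without WT replicate 2 or Id1KO replicate 1), 2 to 4 in dKO against WT, 23 to 28 in dKO against Tet2KO, 2 to 8 in dKO against Id1KO and 15 to 21 for the interaction. The cause of these differences was not tested. Shares of all genes called in these runs are not given here, so the counts describe the members alone. Correlations of same-numbered libraries of different genotypes ran from -0.0972 to 0.113 over 18 pairs. Those of differently numbered libraries ran from -0.104 to 0.174. With 6 of 12 libraries correlating best with their own number, these values cannot settle whether the suffix numbers pair libraries. With a replicate block 24 members were called higher in dKO against Tet2KO in place of 25, and the other 5 contrasts gave the same counts. Among members tested, depth limits Psma8 most, at 49 to 155 counts per library.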
